A study of Nothobranchius furzeri with 20 samples.

Results

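The genes described here are 152 identifiers of the turquoise killifish (Nothobranchius furzeri) brain transcriptome whose read counts differed at least 10-fold between the old brains of the study. They were chosen with the 5 libraries of 14 weeks alone. Counts were scaled to CPM (the reads of a gene for each mega-read of the library's total count), and a gene was taken when its highest CPM at 14 weeks was at least 10 and at least 10 times its lowest, with a lowest value under 0.1 CPM set to 0.1. Of 26739 identifiers, 12816 reached 10 CPM in at least 1 old brain, and the 152 members are 1.19% of those. The range at 14 weeks is therefore how the genes were picked and is given below as a description, with no test, while their values at 5, 7 and 10 weeks did not enter the rule. The rule itself was chosen with earlier results of these data known. Just inside the limit, 3 members had highest-to-lowest ratios of 10.02, 10.11 and 10.13, and just outside it 3 genes had ratios of 9.95, 9.93 and 9.85.

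The study sequenced total RNA from the brain of male fish of the GRZ strain, an inbred line with a very short captive lifespan, at 5, 7, 10 and 14 weeks of age. Each age had 5 libraries, made with a TruSeq RNA v2 kit, and the labels name no treatment, no mutation and no other difference between the groups. Whether a library is the brain of 1 fish or a pool is not stated in the labels, so a p-value here measures the spread between these samples. Replicate numbers only tell apart the libraries of one age.

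A bulk brain library sums the messenger RNA of neurons, glia, blood vessels and whatever else was dissected with the brain. A gene with a large range between samples of one age can be read from how its libraries split: whether one sample is low, one is high, or several stand on each side. Fewer cells of a type and less RNA per cell cannot be told apart in such a sample. Neither the count files nor the reference table given for this species pairs the identifiers with gene names, so no member is named by symbol or given a function, and the labelled tissue was not checked against marker genes. Levels are CPM without correction for gene length and are compared only between libraries, not between genes. The gene lengths solved from the deposited data had a median of 2892 bases over 150 members, against 3224 bases over the 12814 of the 12816 eligible genes with a length.

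Library totals ran from 12.004 to 30.7 M counts (M, mega), with a median of 21.6 M. Over 12005 genes with a mean of at least 10 CPM, the median Spearman rho of a library with the others was 0.829 in 7-week replicate 3, 0.913 in 5-week replicate 5 and 0.922 in 5-week replicate 4. Those were the 3 lowest values. The 14-week replicates 5 and 4 followed with 0.941 and 0.943, and the other 15 ran from 0.945 to 0.968. 5-week replicate 5 had the smallest total and the largest number of identifiers with a read, 22938. Results that rest on these libraries are given with and without them.

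The old brains did not vary in one way. Each member was placed by the widest gap, on the log2 scale, between its ordered old-brain values, which separates the low libraries from the high ones. In 88 members replicate 5 alone was low, in 15 members replicates 4 and 5 were low, and in another 15 only replicates 2 and 3 were high. Replicate 4 alone was high in 10 members, replicate 2 alone in 7, and replicates 2 and 5 in 6, which leaves 11 members with other splits. Over all 152 members, 14-week replicate 5 held the lowest value in 118, and the highest was in replicate 2 in 94 and in replicate 3 in 37. Among all 12816 genes that reached 10 CPM at 14 weeks, replicate 5 was the lowest in 2838. Replicate 2 was the highest in 2580 of those genes and replicate 3 in 2024. Without replicate 5 the rule was met by 55 of the 152 members, against 127 to 148 when any other old library was left out. The members took 0.514%, 0.815%, 0.762%, 0.318% and 0.123% of all counts in 14-week replicates 1 to 5.

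**Figure D1:**
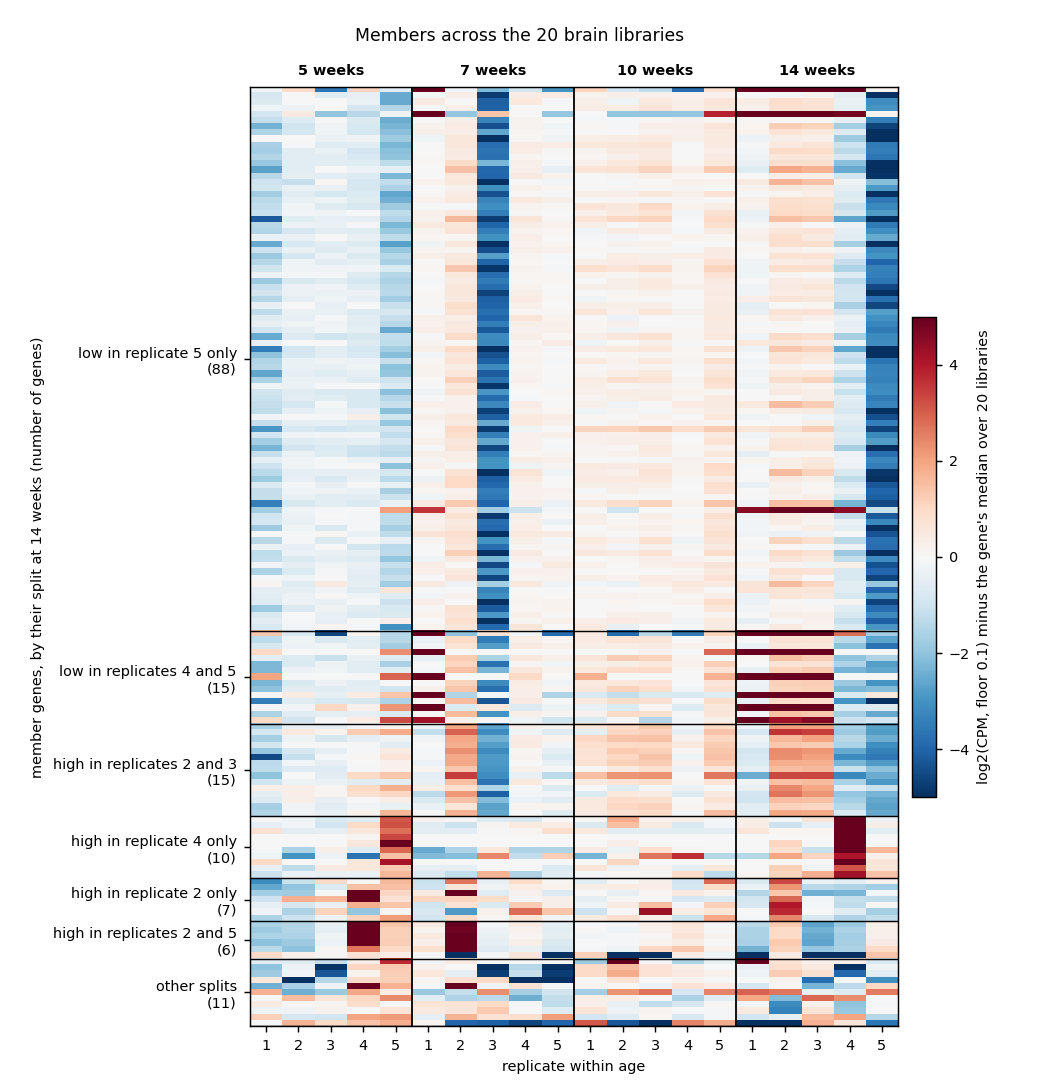
Each row is 1 of the 152 members and each column 1 of the 20 libraries, ordered by age and replicate. Colour is log2 CPM (values under 0.1 set to 0.1) minus the gene's median over the 20 libraries, and rows are grouped by their split at 14 weeks. Nearly all of the 88 members low in 14-week replicate 5 are also blue in 7-week replicate 3, where 84 of them lie more than 2 log2 units below the other libraries of 7 weeks.

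The largest set was a block of genes that was low in 14-week replicate 5, and in 1 younger library as well. Its geometric mean over the 88 members was 7.97, 14.3, 14.45, 13.5 and 7.15 CPM in 5-week replicates 1 to 5, so that replicates 1 and 5 lay below the other 3. At 7 weeks the values were 23.11, 26.7, 1.397, 21.6 and 18.9 CPM. The low library there is replicate 3, and the other 4 lie close together. No such library was seen at 10 weeks, where the values were 21.7, 21.13, 23.3, 19.4 and 27.6 CPM. At 14 weeks, the age that chose the genes, they were 21.7, 32.8, 31.1, 11.9 and 1.34 CPM. Replicate 4 was thus the second lowest, as it was in 83 of the 88 members one by one.

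Both low libraries lay far below the rest of their age. Set against the median of the remaining 4 old libraries, 14-week replicate 5 had a median log2 difference of −3.83 over the 88 members, and 7-week replicate 3, set against its own age in the same way, of −4.03. In 7-week replicate 3 a difference below −2 was seen in 84 of the 88 members, against 5.27% of the 12664 eligible genes that are not members. The median log2 difference was −1.01 in 14-week replicate 4, −0.99 in 5-week replicate 5 and −0.73 in 5-week replicate 1. In the other 15 libraries it ran from −0.16 to 0.96. The same libraries were low together outside the members as well. Of 431 other genes more than 2-fold low in 14-week replicate 5, 370 (85.8%) were also more than 2-fold low in 7-week replicate 3. So were 87 of the 88 members of the set, against 14.0% of all 12664 other genes. Across the 12664 other genes the log2 differences of the 2 libraries correlated with Pearson r = 0.62 and Spearman rho = 0.48, a description across genes. Of the 2, 7-week replicate 3 had the lowest median rank correlation with the other libraries, 0.829. That of 14-week replicate 5 was 0.941, close to the 0.943 of 14-week replicate 4. Within the 88 members the log2 differences of the 2 libraries correlated with r = −0.0050 and rho = 0.36. These 88 were chosen for a low value in 14-week replicate 5, where all 88 lay below −2. That choice narrows the range of its differences, so these 2 values are not comparable with those of the other genes. Over the other genes 14-week replicate 5 correlated with 5-week replicate 5 at r = 0.41 and rho = 0.35. What made these libraries low was not tested.

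**Figure D2:**
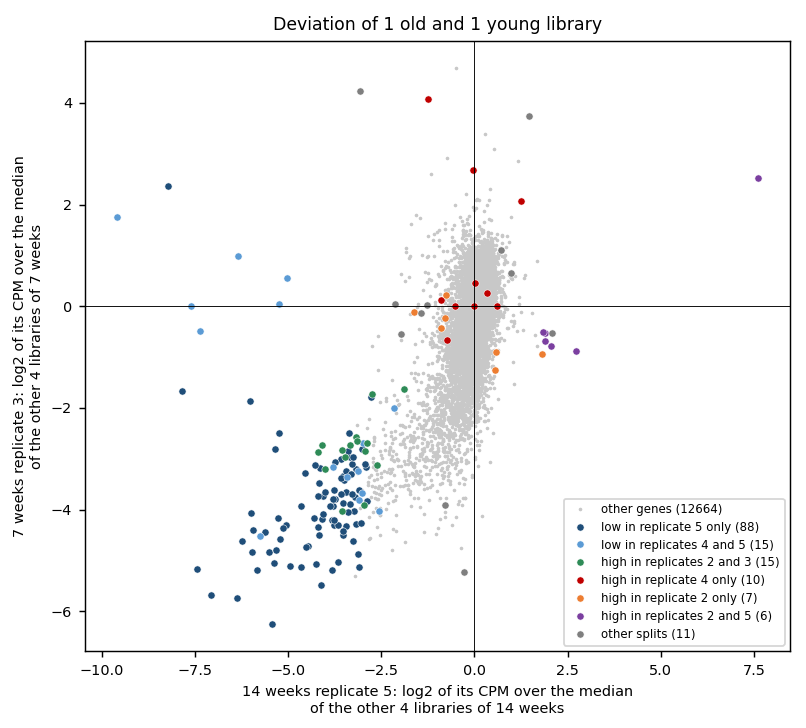
Each point is a gene that reached 10 CPM at 14 weeks, with its log2 CPM difference from the median of the other 4 libraries of the same age in 14-week replicate 5 (x axis) and in 7-week replicate 3 (y axis). Grey points are the 12664 other genes and coloured points the 152 members by set. Members of the set low in replicate 5 lie mostly at the lower left, low in both libraries.

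Nfu_g_1_010783, taken as one of the 2 members whose lowest old library lay furthest below the next, shows the block in a single gene. It had 4.41, 15.3, 17.5, 16.0 and 3.92 CPM at 5 weeks and 22.1, 37.5, 0.555, 29.4 and 27.6 CPM at 7 weeks. At 10 weeks it had 25.9, 29.4, 30.8, 25.3 and 25.9 CPM, a highest-to-lowest ratio of 1.21. Its values at 14 weeks were 26.3, 47.5, 45.7, 8.18 and 0.258 CPM, the last being 5 reads. No 10-week library stands out, while 7-week replicate 3 and 14-week replicate 5 lie far below the rest of their age.

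The 15 members high in old replicates 2 and 3 also differed between single younger libraries. Their geometric mean ran from 2.58 CPM in replicate 1 to 9.84 CPM in replicate 5 at 5 weeks. At 7 weeks replicate 2 was highest with 24.7 CPM and replicate 3 lowest with 0.958 CPM, and this order held in each of the 15 members. The range was 6.49 to 14.3 CPM at 10 weeks, and the values at 14 weeks were 4.16, 29.0, 27.0, 1.996 and 1.11 CPM. These genes had a median length of 4578 bases. The 15 members low in old replicates 4 and 5 had geometric means of 1.62 to 2.92 CPM at 5 weeks. At 7 weeks replicate 1 had 13.9 CPM and the other 4 libraries 0.783 to 3.78 CPM. They had 2.20 to 4.58 CPM at 10 weeks and 15.5, 26.2, 26.9, 1.203 and 0.712 CPM at 14 weeks. These means are pulled by 6 members with a single peak in 7-week replicate 1, which was the highest of its age in those 6, while replicate 2 was the highest in the other 9. The median over the 15 members gives another order, with 10.004, 18.2, 0.555, 8.63 and 6.99 CPM in 7-week replicates 1 to 5. It ran from 6.37 to 13.4 CPM at 10 weeks and was 12.7, 21.4, 27.2, 1.47 and 0.775 CPM in the old replicates, so that old replicate 1 lay within the range of the 10-week brains.

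**Figure D3:**
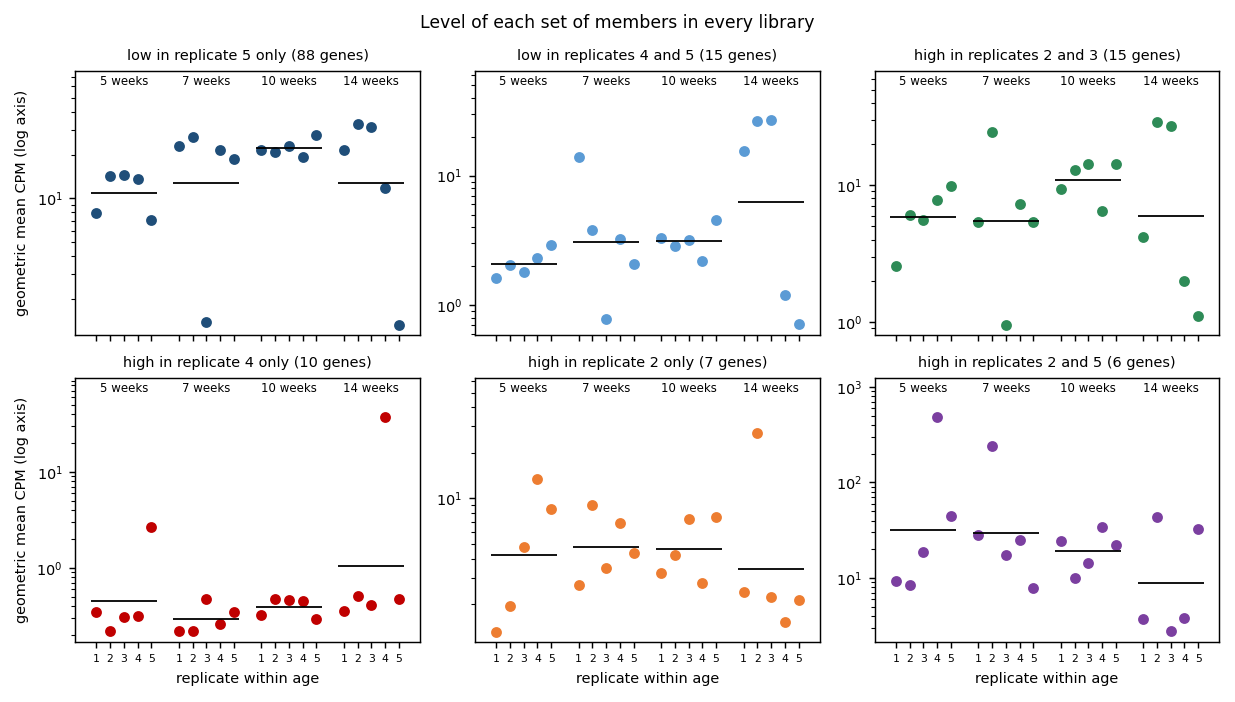
Geometric mean CPM (log axis) of 6 sets of members in each of the 20 libraries, by age and replicate. Points are libraries and lines the geometric mean of the 5 libraries of an age. The set low in 14-week replicate 5 is at 1.34 CPM there and at 1.397 CPM in 7-week replicate 3, and the set high in replicate 4 only is above 1 CPM in 1 younger library, 5-week replicate 5.

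A smaller number of members were low in most brains and high in 1. The 10 members high in 14-week replicate 4 alone had a geometric mean of 37.2 CPM there and 0.355, 0.507, 0.408 and 0.471 CPM in old replicates 1, 2, 3 and 5. In younger brains the mean was 2.67 CPM in 5-week replicate 5 and at most 0.471 CPM in any other library. These means cover members that were not low throughout. Nfu_g_1_012595, named after its values were seen, had 586 reads (24.6 CPM) in 10-week replicate 4, 12.1 CPM in 10-week replicate 3 and 10.03 CPM in 7-week replicate 3, against 31.8 CPM in 14-week replicate 4. Nfu_g_1_022232, named likewise, had 1.11 to 6.58 CPM in the 19 libraries outside 14-week replicate 4, where it had 23.5 CPM. The other 8 reached at most 4.17 CPM outside 14-week replicate 4. 5-week replicate 5 was the highest of its age in 10 of these 10 members. It was also the highest in 37.6% of all genes that reached 10 CPM at that age. None of these 10 members reached that level at 5 weeks, so that share is not a matched background. The same library had the smallest total and the largest number of identifiers with a read. Nfu_g_1_002572 and Nfu_g_1_007921, the 2 members with the largest gap between their highest and second-highest old library, belong here. Nfu_g_1_002572 had 1213 reads (52.5 CPM) in 14-week replicate 4 and 0 or 1 read in the other 4 old libraries. Its 15 younger libraries held at most 1 read each, except 3 reads in 5-week replicate 4 and 12 reads (0.9996 CPM) in 5-week replicate 5. A count of 0 allows up to 3 reads, which is 0.163 CPM in 5-week replicate 3, the shallowest of its libraries at 0. Nfu_g_1_007921 had 54.4 CPM in old replicate 4 and 0.0517 to 0.224 CPM in the other 4 old libraries. Among its younger libraries the highest was again 5-week replicate 5, with 12 reads (0.9996 CPM).

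Of the 6 members high in old replicates 2 and 5, 5 reached much higher levels in single young brains than in old ones, and the other, Nfu_g_1_017550, is described below. The geometric mean over all 6, Nfu_g_1_017550 included, was 481 CPM in 5-week replicate 4 and 239 CPM in 7-week replicate 2. It was 3.75, 44.0, 2.79, 3.79 and 33.0 CPM in the old replicates. Nfu_g_1_007569, chosen after its values were seen, had 12.7, 13.9, 29.3, 2939 and 99.0 CPM at 5 weeks. It had 52.6, 1329, 35.5, 50.1 and 27.7 CPM at 7 weeks and 38.2, 36.7, 48.0, 57.7 and 38.1 CPM at 10 weeks. At 14 weeks its values were 15.3, 94.5, 6.12, 10.5 and 46.7 CPM. The gene thus had a wider range at 5 and 7 weeks than at the age that chose it. All members together took 1.26% of the counts in 5-week replicate 4 (95% Wilson interval 1.25 to 1.26%, counting error only) and 1.15% in 7-week replicate 2 (1.146 to 1.155%), while the other 13 younger libraries held 0.191 to 0.556%.

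The 2 members with the highest old level were low in nearly all younger brains. Nfu_g_1_002728, which is also the other member with the lowest old library furthest below the next, averaged 4.74 ± 3.63 CPM at 5 weeks and 3.99 ± 3.70 CPM at 10 weeks (SD, n = 5 each), and no library of either age passed 8.93 CPM. At 7 weeks replicate 1 had 155 CPM and the other 4 had 0.509 to 3.55 CPM. In old replicates 1 to 5 the gene had 713, 1750, 1359, 787 and 4.496 CPM. Nfu_g_1_014206 averaged 2.24 ± 2.39 CPM at 5 weeks and 1.93 ± 2.19 CPM at 10 weeks (SD, n = 5 each). In 7-week replicate 1 it had 787 CPM, with 0.170 to 3.84 CPM in the other 7-week libraries, and at 14 weeks 531, 819, 591, 16.6 and 0.723 CPM. 7-week replicate 1 thus stood at or towards the old level of both genes, and old replicate 5 stood at the young level of both. Old replicate 4 lay between these levels for Nfu_g_1_014206, at 16.6 CPM. In all, 10 members had at least 1 CPM in 7-week replicate 1 and at least 5 times the level of the next 7-week library (set to 0.1 CPM where lower), 6 of them from the set low in old replicates 4 and 5 and 3 from the set low in replicate 5 only. The same measure, with its minimum of 1 CPM, gave 9 members in 7-week replicate 2, 7 in 5-week replicate 4, 5 in 5-week replicate 5 and at most 2 in any other younger library. It was taken over the members only, so no share over all genes stands beside these counts. Whether such peaks are more frequent in members than in other genes of the same library was not tested.

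A few members, all chosen for description after their values were seen, split in other ways, most of them at more than one age. Nfu_g_1_017550 had 21.15, 12.9, 11.2, 18.1 and 14.1 CPM at 5 weeks, and 10.5, 0.319, 10.5, 16.3 and 0.204 CPM at 7 weeks. It had 24.7, 0.169, 0.231, 13.8 and 9.36 CPM at 10 weeks and 0.0447, 14.6, 0.211, 0.0866 and 28.5 CPM at 14 weeks. No library lay between 0.319 and 9.36 CPM, and the low level held 0 libraries of 5 weeks, 2 of 7 weeks, 2 of 10 weeks and 3 of 14 weeks. Nfu_g_1_006625 had a highest-to-lowest ratio of 20.7, 18.2, 21.3 and 12.1 at 5, 7, 10 and 14 weeks. At 5 weeks it had 7.82, 0.434, 0.650, 8.96 and 3.08 CPM, with replicate 5 between the others. Its high libraries at the later ages were 7-week replicate 3 with 11.8 CPM, 10-week replicates 2, 3 and 5 with 11.2, 15.3 and 13.0 CPM and 14-week replicates 1, 2 and 5 with 18.4, 15.2 and 14.4 CPM. Nfu_g_1_018753 and Nfu_g_1_018918 were each below 0.5 CPM in the same 4 libraries, which are 5-week replicate 3, 7-week replicates 3 and 5 and 14-week replicate 4, and both were above 2 CPM in the other 16. Nfu_g_1_007654 and Nfu_g_1_008919 were both lowest at 14 weeks in replicate 2, with 71.4 and 7.81 CPM, and second lowest in replicate 4, with 157 and 21.8 CPM, while their highest-to-lowest ratios at the 3 younger ages stayed below 10, at most 4.65 for Nfu_g_1_007654 and 3.88 for Nfu_g_1_008919, both at 7 weeks. The single member that met the rule at all 4 ages was Nfu_g_1_014183, whose highest library was 31.7 CPM in 5-week replicate 5, 67.0 CPM in 7-week replicate 2, 76.8 CPM in 10-week replicate 5 and 105 CPM in 14-week replicate 2.

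**Figure D4:**
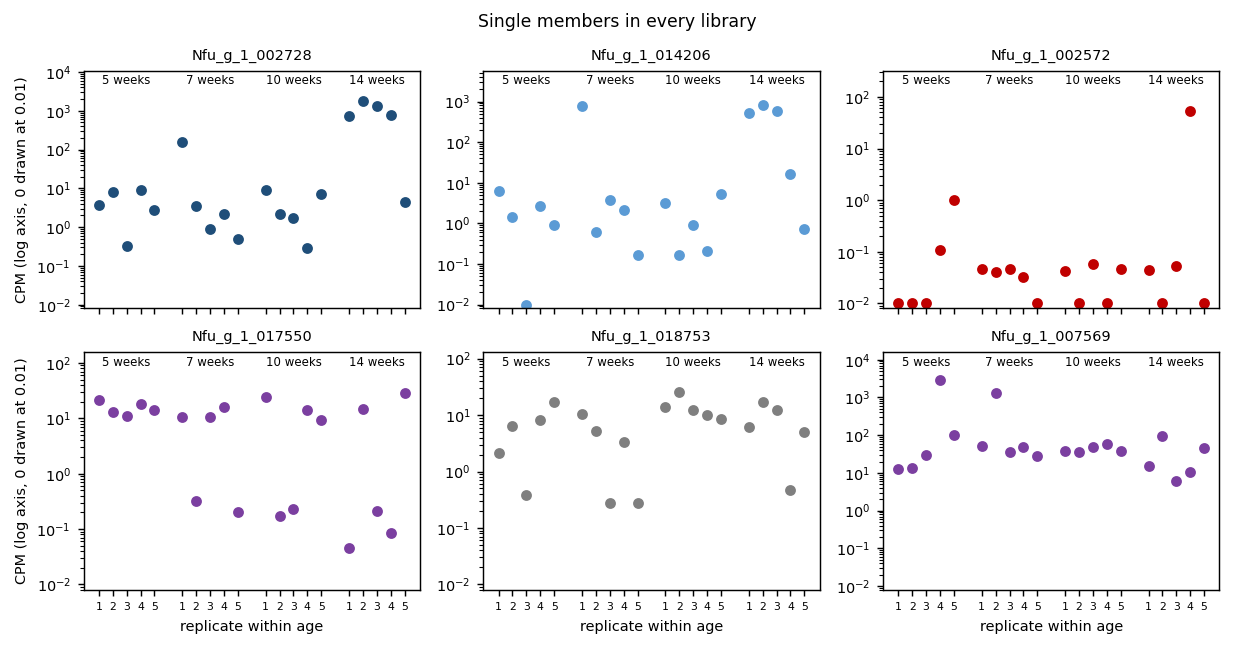
CPM (log axis, a count of 0 drawn at 0.01) of 6 members in each of the 20 libraries, by age and replicate. Nfu_g_1_002728 and Nfu_g_1_014206 are high in 7-week replicate 1, at 155 and 787 CPM, and Nfu_g_1_017550 lies at 0.319 CPM or below or at 9.36 CPM or above in every library.

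The members were next compared with all other genes at the ages that did not choose them. At 5 weeks 96 members reached 10 CPM and 15 met the 10-fold rule, where 2.13% of all 13304 genes that reached 10 CPM did. At 7 weeks 124 reached that level and 110 met the rule, beside 2.93% of 12839 genes. Without 7-week replicate 3, 20 of 122 members met it, beside 0.716% of 12430 genes. At 10 weeks 121 reached the level and 7 met the rule, beside 0.175% of 12593 genes. In order of age, the median highest-to-lowest ratio over all 152 members was 3.33, 22.9, 1.68 and 20.4, and over the other genes that reached 10 CPM it was 1.49, 1.61, 1.30 and 1.37. Leaving out 7-week replicate 3 brought the members' ratio at that age to 1.79, against 1.24 in the other genes. At 5 weeks the ratio was 2.16 without replicates 4 and 5, the next 2 libraries by low rank correlation, against 1.21 in the other genes. Of the 84 members that then reached 10 CPM, 3 met the rule. The share over all genes is not given for that count.

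By age, 94 members met the rule at 7 weeks and no other young age, 12 at 5 and 7 weeks, 3 at 7 and 10 weeks, 3 at 10 weeks only, 2 at 5 weeks only and 1 at all 3, and 37 at none of them. In what follows the other genes are those that reached 10 CPM at the age, while the members are all 152. At 10 weeks 103 of the 152 members stayed within a 2-fold range, against 95.8% of the other genes. At 7 weeks 6 of the 152 members did, against 72.5% of the other genes. Once replicate 3 was left out 84 of the 152 did, against 97.2% of the other genes. The set low in old replicate 5 had a median ratio of 2.66 at 5 weeks, 22.6 at 7 weeks (1.47 without replicate 3) and 1.48 at 10 weeks. Of the 6 members high in old replicates 2 and 5, 5 met the rule at 5 weeks, 6 at 7 weeks and 1 at 10 weeks.

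**Figure D5:**
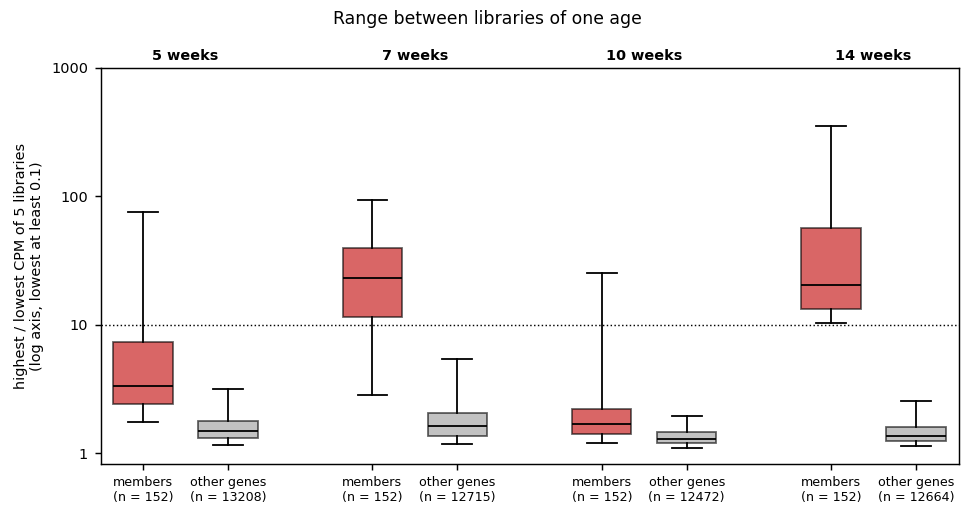
Highest over lowest CPM of the 5 libraries of an age (log axis, lowest value at least 0.1), for the 152 members and for the other genes that reached 10 CPM at that age. Boxes run from the 25th to the 75th percentile with the median inside, whiskers from the 5th to the 95th, and the dotted line marks a ratio of 10, which chose the members at 14 weeks. The members' median is 22.9 at 7 weeks and 1.68 at 10 weeks.

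The lowest and highest library of an age was not spread evenly over the libraries. 7-week replicate 3 was the lowest of its age in 112 of the 152 members, among them 86 of the 88 of the set low in old replicate 5. Among members that reached 10 CPM at 7 weeks it was lowest in 103 of 124, beside 41.4% of all genes that reached it. 7-week replicate 2 was the highest in 103 members and in 93 of those 124, beside 10.7% of all such genes. At 5 weeks replicate 1 was lowest in 62 members and in 35 of the 96 that reached 10 CPM, beside 15.8% of all such genes. Replicate 5 was lowest in 59 and in 51 of the 96, beside 23.3%. At 10 weeks replicate 4 was lowest in 73 members and in 61 of the 121 that reached 10 CPM, beside 20.9%. Replicate 5 was highest in 70 and in 60 of the 121, beside 32.5%. In 5 of the 6 sets, pairs of members followed one another over the 15 younger libraries more closely than they followed members outside the set. Correlations were taken on log2 CPM after each gene's mean at each age was subtracted. Those means were taken over all 15 libraries, so differences between ages do not enter the values over all 15. They were not taken again when libraries were left out. In those settings a left-out library still shifted the values of its age, and differences between ages can enter. The median Pearson r was 0.94 within the set low in replicate 5 and 0.22 between it and the other members (0.81 and 0.09 without 7-week replicate 3). For the set high in replicates 2 and 3 it was 0.92 within and 0.65 outside (0.86 and 0.39 without that library). The set low in replicates 4 and 5 was the exception, with 0.12 within and 0.38 outside (0.04 and 0.26 without that library). Without the 3 libraries of lowest rank correlation the same 5 sets stayed closer within than outside. The difference narrowed in all of them but the set high in replicates 2 and 3, which had 0.90 and 0.60. The set low in replicate 5 then had 0.82 within and 0.30 outside. For the set high in replicates 2 and 5 the values were 0.95 and 0.34, against 0.91 and 0.24 over all 15 libraries. The set high in replicate 4 only then had 0.27 within and −0.0021 outside, against 0.63 and −0.18 over all 15 libraries. For the set high in replicate 2 only the values were 0.47 and 0.36, against 0.51 and 0.17. These values describe pairs of genes that share libraries and carry no test.

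Whether the spread itself differed between young ages was tested gene by gene with a Levene-type test in limma, on the absolute deviation of log2 CPM from the mean of its age, with Benjamini-Hochberg adjustment over 19232 genes and a threshold of 0.05. Of the 152 members 139 passed the filter on low counts and 13 were not tested. Between 10 and 5 weeks 1 member was called as changed in spread, beside 0.0676% of all genes tested, and 15 members had an unadjusted p below 0.05, beside 8.32% of all genes. This was Nfu_g_1_017550, with a mean deviation of 3.05 at 10 weeks and 0.38 at 5 weeks, a difference of 2.67 ± 0.39 (SE; adjusted p = 0.0165 in limma, 0.00318 to 0.9998 over the alternatives). The call was lost without 10-week replicate 2 or 3, both at the low level, and without 5-week replicate 4 or 5 or 7-week replicate 2 or 5. No member was called as changed in spread between 7 and 5 weeks in limma (0.0208% of all genes, with 33 members at an unadjusted p below 0.05, beside 10.1% of all genes) or between 10 and 7 weeks (0% of all genes, with 92 members at an unadjusted p below 0.05, beside 14% of all genes). Without 7-week replicate 3 these counts moved. Between 10 and 5 weeks 5 of 140 tested members were then called as changed in spread, beside 0.144% of all genes, and 71 had an unadjusted p below 0.05, beside 16.1%. Between 7 and 5 weeks 1 member was called, beside 0.0361%, and 49 had an unadjusted p below 0.05, beside 15.5%. Between 10 and 7 weeks no member was called in limma, beside 0.0464%, and 14 had an unadjusted p below 0.05, beside 3.63%. A lack of calls does not show an unchanged spread. On simulated counts for 7 against 5 weeks, limma called 41 of 200 genes given an extra SD of 2 log2 units. Those were drawn from all tested genes above a minimum mean level, not from the members alone. The median difference in mean deviation over the tested members was −0.36 for 10 against 5 weeks, beside −0.07 over all genes. For 7 against 5 weeks it was 0.68, beside 0.03, and −0.29 without 7-week replicate 3, beside −0.08. For 10 against 7 weeks it was −1.09, beside −0.08, and −0.10 without that library, beside 0.01.

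Levels between young ages were tested with edgeR's quasi-likelihood test on the 15 libraries of 5, 7 and 10 weeks. Between 10 and 5 weeks 1 member was higher and 1 lower at an adjusted p below 0.05, beside 3.46% of all genes tested in either direction. At an unadjusted p below 0.05 there were 51 of 139 members, beside 21.8% of all genes, and 102 of 140 without 7-week replicate 3, beside 30.7%. DESeq2 called 13 of 152 members, beside 6.81% of all genes, and limma-voom 0 of 139, beside 2.86%. Nfu_g_1_005213, of the set low in old replicate 5, rose: it had 19.5, 19.4, 22.7, 16.8 and 22.4 CPM at 10 weeks and 1.19, 5.204, 4.498, 5.09 and 4.75 CPM at 5 weeks, with no overlap. Its log2 fold change was 2.29 ± 0.59 (SE; adjusted p = 0.0478 in edgeR, 0.00131 to 0.116 over the alternatives). Nfu_g_1_015191, which falls outside the rule for named genes because its groups overlap, had 2.63, 3.80, 3.40, 2.01 and 2.28 CPM at 10 weeks and 1.78, 12.8, 11.5, 139 and 5.91 CPM at 5 weeks. Its log2 fold change was −3.67 ± 0.94 (SE; adjusted p = 0.0481 in edgeR, 0.00140 to 0.267 over the alternatives), and it was −1.49 with an adjusted p of 0.0937 without 5-week replicate 4, its highest library. Leaving out 1 library at a time ended the call of Nfu_g_1_005213 in 13 of 15 cases and that of Nfu_g_1_015191 in 12 of 15.

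The number of members called between 10 and 5 weeks depended on a library of neither age. 7-week replicate 3 enters that fit through the filter on low counts, the scaling and the shared estimate of the spread, which were not separated. Without that library 72 of 140 members were higher at 10 weeks and 3 lower, beside 6.72% and 8.14% of all genes tested. Of the 86 tested members of the set low in old replicate 5, 59 were higher and none lower, with a median log2 fold change of 0.90. Of the 10 tested members low in old replicates 4 and 5, 9 were higher. The median over all tested members hardly moved, at 0.86 with and without that library, beside −0.03 over all genes. Without 7-week replicate 3 and 5-week replicates 4 and 5 69 members were higher and 1 lower, beside 7.71% and 8.83% of all genes. The 6 members high in old replicates 2 and 5 had a median log2 fold change of 1.22 without all 3 libraries and −3.16 with them, 5-week replicate 4 being the one at 481 CPM.

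Between 7 and 5 weeks no member was called by edgeR, beside 0.0156% of all genes, with 14 members at an unadjusted p below 0.05, beside 10.7% of all genes. DESeq2 called 1 member, beside 0.777% of all genes, and limma-voom 0, beside 0.0208%. Without 7-week replicate 3, 98 of 140 members had an unadjusted p below 0.05, beside 22.7%, and 40 members were higher at 7 weeks and 1 lower, beside 1.84% and 1.16% of all genes, 35 of the 40 being of the set low in old replicate 5. Between 10 and 7 weeks no member was called by edgeR, beside 1.15% of all genes, with 4 members at an unadjusted p below 0.05, beside 16.5% of all genes. DESeq2 called 2 of 152 members, beside 4.15% of all genes, and limma-voom 0, beside 1.08%. Without 7-week replicate 3 edgeR called 0, beside 1.78% of all genes, with 10 of 140 at an unadjusted p below 0.05, beside 16.6%. The 3 comparisons share libraries and are not independent of one another.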

How the data were processed

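Brain RNA of male GRZ killifish of 4 ages (5 libraries each) was analysed from the authors' deposited tables. The submitters' processing notes list featureCounts 1.4.6-p4, STAR 2.4.1d and CASAVA 1.8.2. The genome build, annotation and strand setting were not given in these sources. Every test was run on the authors' deposited raw counts per gene.

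The authors' deposited RPKM table divides each count by a gene length and a library total, but each row takes its totals from the next position of a cycle of 25 (the 20 libraries and 5 unknown totals). That cycle gave back 99.99% of 336619 values within 0.0011, and the libraries' own totals gave back 5.36%. RPKM therefore served only to solve gene lengths and, rescaled to each library's own total, as an alternative to the rule.

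Levels were tested in R 4.3.3 with edgeR 4.0.16 (TMM, filterByExpr by age, robust quasi-likelihood fit) on the 15 libraries of 5, 7 and 10 weeks, 19232 genes, with the 14-week libraries left out because they chose the members. Spread was tested with limma 3.58.1 on absolute deviations of log2 CPM (TMM, prior count 2). P-values were adjusted by Benjamini-Hochberg over all genes tested. DESeq2 1.42.0, limma-voom, other scalings and filters, and leaving out each library were alternatives; leaving out the 3 libraries of lowest rank correlation was added after seeing the data.

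On simulated counts for 10 against 5 weeks (19172 genes), edgeR called 67 of 100 genes changed 2-fold, 87 of 100 changed 4-fold and 6 of 18972 unchanged genes. For spread at 7 against 5 weeks (19175 genes), limma called 41 of 200 genes given an extra SD of 2 log2 units and 8 of 18975 others. The changed genes were drawn at random from all tested genes above a minimum mean level, not from the members alone. Counts were drawn gene by gene, with no library set apart. Many members moved together in single libraries, so these shares do not give the rate at which changed members would be called.

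Without gene names the rule for naming took the 2 members with the highest old level, the 2 highest in 1 old brain above the next (highest CPM at least 20), the 2 lowest in 1 old brain below the next (median at least 10 CPM), and up to 2 called members a direction and comparison with groups that do not overlap. Of the identifiers, 0 match the RefSeq gene table of NfurGRZ-RIMD1, so lists of marker genes were not used. The members, sets and lists were chosen with earlier results of these data known. No 2 libraries of one age agreed within sampling noise (smallest chi-square per degree of freedom 8.67, over genes with 20 or more counts in both together).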

Additional observations from a re-analysis of the deposited data

Results flagged for a closer look

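The 5 values at each age of 16 named members, and the members' share of all counts, were screened in 68 groups of values. Nfu_g_1_012595 and Nfu_g_1_022232 were not screened. A library was flagged when its gap to the next exceeded Dixon's 95% critical value of 0.71 for 5 samples. Chance flags about 1 in 20 such groups if the values are normally distributed. The screen used CPM, in some groups from a few reads, and their distribution was not checked. Members were picked for a wide range at 14 weeks, so the flags at that age come with the choice. Nfu_g_1_006625, Nfu_g_1_007569, Nfu_g_1_014183 and Nfu_g_1_016264 were named after their values at every age were seen, so their flags come with the choice at all 4 ages, and the chance rate does not apply to them. The screen marked 18 values.

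At 5 weeks replicate 4 was set apart by Nfu_g_1_007569 (2939 CPM), Nfu_g_1_015191 (139 CPM) and the members' share of all counts (1.26%). 5-week replicate 5 was the high library of Nfu_g_1_002572 (0.9996 CPM) and Nfu_g_1_007921 (0.9996 CPM), and 5-week replicate 1 the low one of Nfu_g_1_005213 (1.19 CPM). At 7 weeks replicate 1 was high for Nfu_g_1_002728 (155 CPM), Nfu_g_1_014206 (787 CPM) and Nfu_g_1_016264 (3.33 CPM), replicate 2 for Nfu_g_1_007569 (1329 CPM) and Nfu_g_1_014183 (67.0 CPM), and replicate 3 for Nfu_g_1_006625 (11.8 CPM). At 10 weeks replicate 1 was high for Nfu_g_1_007921, at 0.212 CPM or 5 reads, and replicate 5 for Nfu_g_1_014183 (76.8 CPM). At 14 weeks replicate 4 was high for Nfu_g_1_002572 (52.5 CPM) and Nfu_g_1_007921 (54.4 CPM), and replicate 2 for Nfu_g_1_015191 (26.3 CPM) and Nfu_g_1_014183 (105 CPM).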

How the results depend on the processing

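The number of members followed the limits of the rule: 101 with a minimum of 20 CPM, 305 at a 5-fold and 78 at a 20-fold ratio, and 94 (77 of them members) with RPKM rescaled to each library's own total. Leaving out 1 old library at a time gave 55 to 148. Members within the 10-fold rule at another age numbered 8 to 14 at 5 weeks, 20 to 110 at 7 weeks and 6 to 7 at 10 weeks with 1 library of that age left out. Beside them stood 0.765% to 2.10%, 0.716% to 2.87% and 0.104% to 0.176% of all genes that reached 10 CPM. The lowest share at 5 weeks came without replicate 4 and that at 7 weeks without replicate 3, as did the lowest member counts. Without the 3 libraries of lowest rank correlation the members within the rule were 3 at 5 weeks and 20 at 7 weeks. The latter stood beside 0.716% of all genes, and the share at 5 weeks is not given here. Called level differences between 10 and 5 weeks (2 members) became 13 with DESeq2 (8.55% of members, beside 6.81% of all genes), 1 with all 20 libraries in the fit (beside 5.97%), 0 with limma-voom (beside 2.86%), 0 without a filter on low counts (beside 1.95%), and 70 without the 3 libraries (50% of members, beside 16.5%). With 1 library left out they were 0 to 75, beside 0.0773% to 14.9% of all genes. Between 7 and 5 weeks (0 members) they were 1 with DESeq2 (beside 0.777% of all genes) and 26 without the 3 libraries (18.6% of members, beside 3.27%). With 1 library left out they were 0 to 41. The 41 came without 7-week replicate 3, where 1.84% of all genes were higher and 1.16% lower. Without any other single library the called differences were 0 members, beside at most 6 of all genes tested. Between 10 and 7 weeks (0 members) they were 2 with DESeq2 (1.32% of members, beside 4.15%), 2 without the 3 libraries (1.43%, beside 6.79%) and 0 to 0 with 1 left out (beside 0.0206% to 1.82%). Called spread differences between 10 and 5 weeks (1 member) were 0 with deviations from the median (beside 0% of all genes) and 0 without the 3 libraries (beside 0%). With 1 library left out they were 0 to 5, beside 0.00518% to 0.442%. Between 7 and 5 weeks they were 0 to 2 with 1 left out, beside 0% to 0.324%. Between 10 and 7 weeks they were 1 without the 3 libraries (beside 0.186%) and 0 to 1 with 1 left out (beside 0% to 0.0878%). Why the counts moved was not tested, beyond the fewer libraries in a fit. No paired analysis was possible because replicate numbers follow accession order and pair nothing. Depth limits members near 0: a count of 0 allows 0.0976 to 0.250 CPM, by library.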
